A study of Mus musculus with 3 samples.

Results

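The genes described here are 10 enzymes that make serine, one-carbon units, asparagine and proline: Phgdh, Psat1, Psph, Shmt1, Shmt2, Mthfd2, Mthfd1l, Asns, Aldh18a1 and Pycr1. They were chosen by symbol in the authors' deposited table of fold changes, and all 10 were present, with 16 of its 17910 RefSeq transcripts and 10 of its 11886 genes. The study compared 3 RNA-seq libraries from mT3-2D-GFP, a mouse KPC pancreatic cancer line of C57BL/6 origin that carries green fluorescent protein (GFP). One library held GFP-positive cells sorted from the line's tumours in immunocompetent C57BL/6 (WT) mice, with RNA of 6 tumours combined in equal amounts. A second held GFP-positive cells sorted from tumours in B6.CB17-Prkdcscid/SzJ (SCID) mice, with RNA of 5 tumours combined, and the third was the line in culture, grown in DMEM with serum and glutamine. SCID mice lack mature T and B cells because of a mutation in Prkdc. Every group therefore carries the same KPC line and GFP, and the labels give no age or sex of the hosts.

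Each group had 1 library, so no difference was tested, no p-value is given and how far single tumours differ is unknown. Values are those of the authors' deposited table; its header names no log base, and they were taken to be log2 fold changes, so that -1 is 2-fold lower and 1 is 2-fold higher; a gene's value is the mean over its transcripts. The labels give a mean depth of 40M reads over the libraries, but the table holds no counts or levels, so the reads behind each value are unknown, and the level of one enzyme cannot be set against that of another. The table's values run only from -2.49 to 2.77, and whether the authors shrank them is not given in the sources used here, so a fold is a fold on this scale and not a ratio of reads. In bulk RNA of this kind, fewer cells of a type and less RNA per cell cannot be told apart.

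Serine is made from a glycolytic intermediate in a short chain of reactions. Phgdh oxidises 3-phosphoglycerate, Psat1 moves an amino group onto the product from glutamate, and Psph removes the phosphate. Shmt1 in the cytosol and Shmt2 in mitochondria then split serine into glycine and a one-carbon unit carried on folate. Mthfd2 oxidises that unit in mitochondria and Mthfd1l releases it there as formate, which the cytosol uses for purines and thymidylate. Asns makes asparagine from aspartate and glutamine, while Aldh18a1 and Pycr1 make proline from glutamate. Many of these genes are known targets of ATF4, the transcription factor of the amino acid response, and cancer cells often express them highly.

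Relative to the cultured line, most of the 10 enzymes were lower in the sorted tumour cells of both hosts, and the pools differed little from each other. In WT tumours against the line, Psat1, Mthfd2 and Asns were lower by 2-fold or more, that is 3 of 10 enzymes, where 2.03% of all genes were as low. In SCID tumours against the line these 3 and Shmt2 were lower by 2-fold, that is 4 of 10, where 2.62% of all genes were. No enzyme was higher by 2-fold in either comparison, against 4.12% of all genes in WT tumours and 3.65% in SCID tumours. At 1.5-fold, 8 of 10 enzymes were lower in WT tumours and 8 in SCID tumours, where 8.36% and 9.43% of all genes were; Mthfd1l and Pycr1 were the others. Counted by transcript, 3 of 16 were lower by 2-fold in WT tumours and 5 of 16 in SCID tumours, where 2.05% and 2.49% of all transcripts were. The median of the 10 enzymes was -0.82 in WT tumours and -0.93 in SCID tumours, beside a median of -0.01 and -0.02 over all genes. Both comparisons share the 1 library of the line, so they are not independent of each other.

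**Figure D1:**
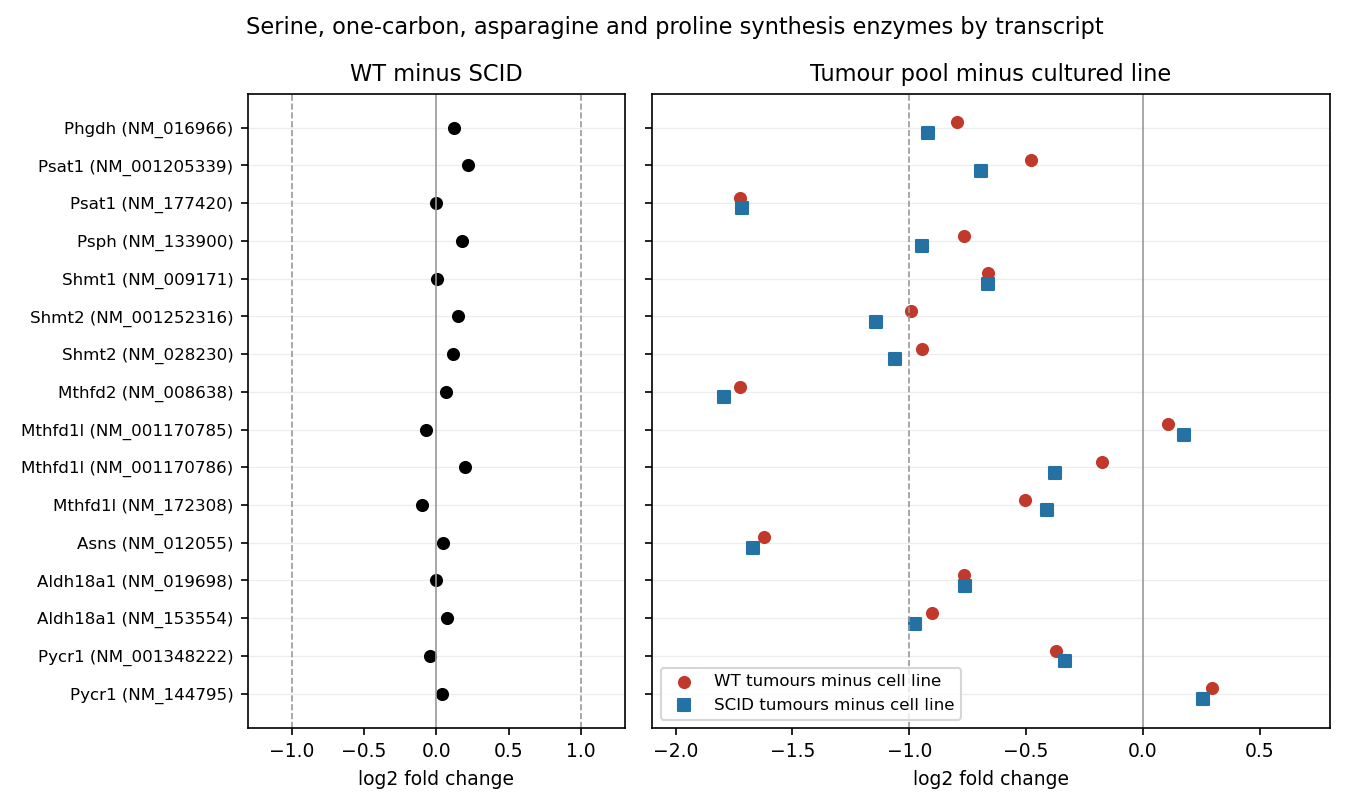
Log2 fold changes of the 16 transcripts of the 10 enzymes, with WT minus SCID on the left and each tumour pool minus the cultured line on the right; dashed lines mark 2-fold and each point compares 2 libraries. The tumour pools lie close together in each row, and the lowest values are those of Mthfd2, Asns and the NM_177420 transcript of Psat1.

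Of the serine enzymes, Psat1 was lowest. Its value was -1.10 in WT tumours against the line and -1.21 in SCID tumours against the line, which is 2.14-fold and 2.31-fold lower. Phgdh, the enzyme that commits carbon to serine, stood at -0.80 in WT tumours and -0.92 in SCID tumours. Psph, the last enzyme of the chain, stood at -0.77 in WT tumours and -0.94 in SCID tumours. Phgdh and Psph thus lay within 2-fold in both pools, and all 3 enzymes of the chain were below 0. The authors' deposited table places Phgdh (NM_016966) at chr3:98313171-98339969 and Psph (NM_133900) at chr5:129765558-129787253, each on the reverse strand. In GENCODE vM21 an exon of Psph overlaps an exon of Cct6a, a chaperonin subunit gene on the opposite strand, which was at -0.55 in WT tumours and -0.47 in SCID tumours. The library kit keeps strand, but whether the counting used it is not given in the sources used here and so reads in that overlap could belong to either gene.

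Against the line, the value of Psat1 is a mean of transcripts that differed more than those of any other enzyme in the set. NM_177420 was at -1.72 in WT tumours and -1.72 in SCID tumours against the line. NM_001205339 was at -0.48 in WT tumours and -0.69 in SCID tumours. The gap between these transcripts was 1.24 in WT tumours and 1.02 in SCID tumours on the log2 scale, beside an SD within genes, pooled over all genes with several transcripts, of 0.31 and 0.33. That SD is taken around the mean of each gene, so a gap between transcripts is usually the larger measure of the same spread. It describes transcripts within these libraries and not animals. NM_177420 lies on chromosome 19 from 15905123 to 15925059 and NM_001205339 from 15905123 to 15924622, both on the reverse strand. They share the same end in the authors' deposited table and differ in where transcription starts.

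Their GENCODE vM21 counterparts have 9 exons each, of which 7 are identical, and 8 coding segments are identical. The first exon differs, with 196 bases in NM_177420 and 319 in NM_001205339, and in GENCODE the last exon also ends at different positions. Each first exon has its own start codon and its own coding stretch. The coding part of each first exon, read from the GENCODE vM21 transcripts (GRCm38), is printed here because it is the coding sequence that tells the transcripts apart, with the start codon in capitals; that of NM_177420 is at chr19:15924864-15924923 and that of NM_001205339 at chr19:15924304-15924354, reverse strand.
NM_177420: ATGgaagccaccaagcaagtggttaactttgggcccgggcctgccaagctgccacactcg
NM_001205339: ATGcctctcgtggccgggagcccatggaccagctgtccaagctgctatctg
The first has 60 coding bases and the second 51, and the remaining coding sequence is common to both. How the authors divided reads that fall in the shared exons between the transcripts is not given in the sources used here. This gap between the transcripts therefore describes the table's values, and separate read counts of the first exons were not used here.

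**Figure D2:**
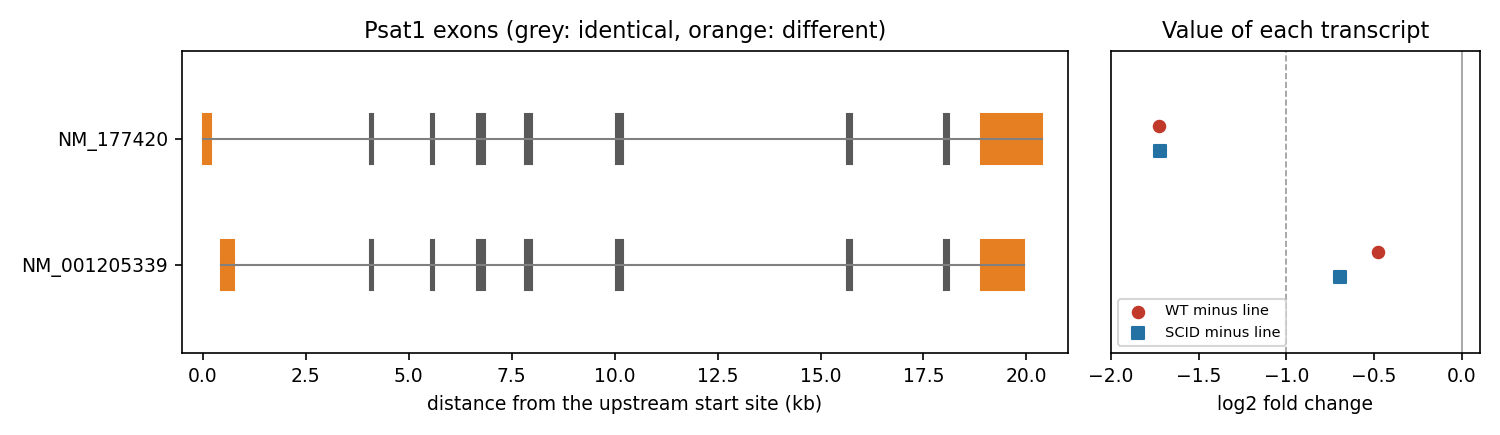
Exons of the Psat1 transcripts by distance from the upstream start site in kb (left; grey exons are identical in both, orange exons differ) and the log2 fold change of each transcript in WT and SCID tumours against the cultured line (right; 1 value per pool). NM_177420, with the upstream first exon, is at -1.72 in both pools, and NM_001205339, with the downstream first exon, at -0.48 in WT tumours and -0.69 in SCID tumours.

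The upstream regions of these start sites also differ in letters. RefSeq (GRCm38.p6) gives a promoter window for each, and the 250 bases before each start are shown for that reason, reverse strand, for NM_177420 at chr19:15925060-15925309 and for NM_001205339 at chr19:15924623-15924872; capitals mark the CCAAT box, searched as CCAAT on both strands.
Psat1 before NM_177420: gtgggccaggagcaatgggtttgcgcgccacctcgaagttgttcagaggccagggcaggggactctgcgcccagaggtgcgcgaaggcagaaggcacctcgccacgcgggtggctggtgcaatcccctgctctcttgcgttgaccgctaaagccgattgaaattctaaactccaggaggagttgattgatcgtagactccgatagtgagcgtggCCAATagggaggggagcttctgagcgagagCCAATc
Psat1 before NM_001205339: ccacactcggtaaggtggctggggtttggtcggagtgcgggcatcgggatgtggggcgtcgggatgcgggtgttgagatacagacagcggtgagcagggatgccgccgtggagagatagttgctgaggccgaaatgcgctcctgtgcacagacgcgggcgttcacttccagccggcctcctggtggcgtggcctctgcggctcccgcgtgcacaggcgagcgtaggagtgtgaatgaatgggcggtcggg
The window before NM_177420 held 2 CCAAT matches, the first base of which lay 36 and 6 bases before the start, and the window before NM_001205339, which overlaps the end of the other transcript's first exon, held 0. Of 32851 RefSeq promoter windows of this length, 33.8% held at least 1 such match, so the match is a common one. GC content was 59.6% in the window before NM_177420 and 65.6% in the other.

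Among the one-carbon enzymes, the mitochondrial Mthfd2 was the lowest of all 10. It was at -1.73 in WT tumours and -1.79 in SCID tumours against the line, 3.31-fold and 3.46-fold lower, and ranked 38th and 20th lowest of 11886 genes. Shmt2, the mitochondrial hydroxymethyltransferase, was at -0.97 in WT tumours, just inside the 2-fold line, and at -1.10 in SCID tumours, just outside it. With values adjusted for GC content and transcript length, 4 enzymes and not 3 passed 2-fold in WT tumours. Shmt1, its cytosolic relative, was at -0.66 in WT tumours and -0.66 in SCID tumours. Mthfd1l, the mitochondrial formate-producing enzyme, stood apart at -0.19 in WT tumours and -0.20 in SCID tumours. The mitochondrial enzymes thus did not share 1 value: Mthfd2 and Shmt2 were among the lowest, while 32.6% of all genes were lower than Mthfd1l in WT tumours and 32.5% in SCID tumours.

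Mthfd2 (NM_008638) lies at chr6:83305704-83317604 and Shmt1 (NM_009171) at chr11:60788897-60811265, each on the reverse strand. Shmt2 had NM_001252316 at -0.99 in WT tumours and -1.14 in SCID tumours, and NM_028230 at -0.94 in WT tumours and -1.06 in SCID tumours, both on chromosome 10 from 127517123 to 127522444, reverse strand. Its transcripts thus lay closer together than those of Psat1. In GENCODE vM21 an exon of Shmt2 overlaps an exon of Ndufa4l2 on the opposite strand, a gene with no row in the table. The 3 transcripts of Mthfd1l lay on both sides of 0. NM_001170785, which ends at 4167081 on chromosome 10 with a last exon of its own, was at 0.11 in WT tumours and 0.18 in SCID tumours. NM_001170786 was at -0.18 in WT tumours and -0.38 in SCID tumours, and NM_172308 at -0.51 in WT tumours and -0.41 in SCID tumours; both end at 4156130. All 3 have 2931 coding bases in GENCODE.

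Asns, which makes asparagine, was close behind Mthfd2. It stood at -1.62 in WT tumours and -1.67 in SCID tumours against the line, 3.08-fold and 3.18-fold lower, and ranked 55th and 42nd lowest of all genes. The table holds 1 transcript of it, NM_012055, on chromosome 6 from 7675171 to 7693182, reverse strand. Asns is a textbook target of the amino acid response through an element just before its start, which ATF4 and CEBP factors bind. The 250 bases before the RefSeq starts of Asns (chr6:7693210-7693459, reverse strand) and Mthfd2 (chr6:83317605-83317854, reverse strand) are printed as those of the lowest enzymes, with the RefSeq start of Asns slightly upstream of that in the table; capitals mark TGATGNAA, the ATF4 and CEBP element, and CCAAT, both searched on both strands.
Asns: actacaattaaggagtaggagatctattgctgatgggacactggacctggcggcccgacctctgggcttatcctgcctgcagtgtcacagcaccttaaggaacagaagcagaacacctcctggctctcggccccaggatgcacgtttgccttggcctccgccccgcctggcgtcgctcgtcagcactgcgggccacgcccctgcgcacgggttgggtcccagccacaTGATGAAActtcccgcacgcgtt
Mthfd2: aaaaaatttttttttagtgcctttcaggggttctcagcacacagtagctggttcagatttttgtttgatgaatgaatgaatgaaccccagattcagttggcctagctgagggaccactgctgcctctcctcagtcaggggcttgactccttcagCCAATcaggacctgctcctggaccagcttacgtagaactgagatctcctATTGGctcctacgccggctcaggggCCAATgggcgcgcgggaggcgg
The Asns window held 1 ATF4 and CEBP match, beginning 23 bases before the start, and 0 CCAAT matches. The Mthfd2 window held 3 CCAAT matches, beginning 96, 47 and 22 bases before the start, and 0 ATF4 and CEBP matches. In all, 2 of the 11 RefSeq windows of the 10 enzymes held TGATGNAA, that of Asns and that of Pycr1, where 3.45% of all windows did. CCAAT was in 6 of the 11 windows, those of Phgdh, Psat1 before NM_177420, Psph, Shmt1, Mthfd2 and Pycr1, against 33.8% of all windows. The E-box CACGTG was in 1 of 11, that of Aldh18a1, against 6.02% of all windows. These motifs were chosen after the values and sequences were seen, so the shares are a description and not a test. GENCODE vM21 places the starts of Asns (7693254), Psph (129787449) and Phgdh (98339990) upstream of the RefSeq starts. The Asns TGATGNAA match and the Psph CCAAT matches lie downstream of the GENCODE starts of these genes. The Phgdh CCAAT match that begins 23 bases before the RefSeq start spans the GENCODE start of Phgdh. Windows with and without a match both belonged to enzymes with low values. A match is a description of letters only, and the part of these elements in the values was not tested.

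The proline enzymes differed from each other. Aldh18a1, the enzyme that turns glutamate into the proline precursor, stood at -0.83 in WT tumours and -0.87 in SCID tumours against the line. Pycr1, which makes the last step to proline in mitochondria, stood at -0.04 in both pools and thus near the middle of all genes. The RefSeq window of Pycr1 (chr11:120643749-120643998, reverse strand) is shown because, besides that of Asns, it held a match to TGATGNAA. The match differs from that of Asns in 1 letter and in place, and binding was not measured. The window lies directly before the GENCODE start of NM_001348222, the lower of the Pycr1 transcripts. Capitals mark TGATGNAA and CCAAT on both strands.
Pycr1: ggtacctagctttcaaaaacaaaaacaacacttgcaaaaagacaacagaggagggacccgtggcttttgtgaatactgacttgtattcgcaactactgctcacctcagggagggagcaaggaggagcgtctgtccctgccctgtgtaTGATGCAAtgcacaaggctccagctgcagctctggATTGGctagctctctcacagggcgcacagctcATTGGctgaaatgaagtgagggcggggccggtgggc
The TGATGNAA match began 103 bases before the start, and 2 CCAAT matches began 68 and 36 bases before that start. The value of Pycr1 averages transcripts on both sides of 0. NM_001348222 (chromosome 11, 120639406 to 120643769, reverse strand) was at -0.37 in WT tumours and -0.33 in SCID tumours. NM_144795 (120635712 to 120643670) was at 0.30 in WT tumours and 0.26 in SCID tumours. In GENCODE both have 927 coding bases and differ in noncoding sequence at both ends.

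Aldh18a1 has a pair of transcripts that differ by 6 coding bases at the end of exon 7. NM_019698, the longer one, was at -0.77 in WT tumours and -0.76 in SCID tumours, and NM_153554 was at -0.90 in WT tumours and -0.98 in SCID tumours; both lie on chromosome 19 from 40550257 to 40588463, reverse strand. The coding sequence across the junction after exon 7 is printed to show how small the difference is, with the 6 added bases (chr19:40574211-40574216) in capitals.
NM_019698: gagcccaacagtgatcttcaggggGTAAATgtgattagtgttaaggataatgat
NM_153554: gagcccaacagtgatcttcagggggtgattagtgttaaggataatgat
Reads that cross this junction tell the forms apart, and the gap between these transcripts, 0.14 in WT tumours and 0.21 in SCID tumours, was below the pooled SD between transcripts. The splice forms are known to differ in how strongly ornithine inhibits the enzyme.

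Between WT and SCID tumours the 10 enzymes differed by 0.18 or less on the log2 scale. None was higher or lower by 2-fold in WT tumours, where 0.303% of all genes were higher and 0.0168% lower. At 1.5-fold the count was also 0, where 1.1% of all genes were higher and 0.177% lower. Values of WT minus SCID ran from -0.003 for Pycr1 to 0.18 for Psph, with a median of 0.06 beside 0.004 for all genes. Of the 10 enzymes, 9 were above 0 and 1 below, where 6122 of 11886 genes were above 0. That count includes values close to 0: Shmt1 at 0.001, Mthfd1l at 0.01 and Aldh18a1 at 0.03. With the GC and length trend removed, Shmt1 was at -0.005, Mthfd1l at -0.02, Aldh18a1 at -0.007 and Pycr1 at -0.04. The other enzymes stayed above 0 under that setting. Counted by transcript, 11 of 16 were above 0 and 5 below. The comparison is narrow, so Psph was higher than 90.5% of all genes and Pycr1 higher than 47.6%. The serine enzymes had the higher end, with Psph at 0.18, Phgdh at 0.12 and Psat1 at 0.11, and Shmt2 was at 0.13. Mthfd2 was at 0.07 and Asns at 0.05. By transcript the values ran from -0.10 for NM_172308 of Mthfd1l to 0.22 for NM_001205339 of Psat1. A small number does not show that the enzymes were equal in the tumours, since the spread between the tumours pooled was not measured.

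**Figure D3:**
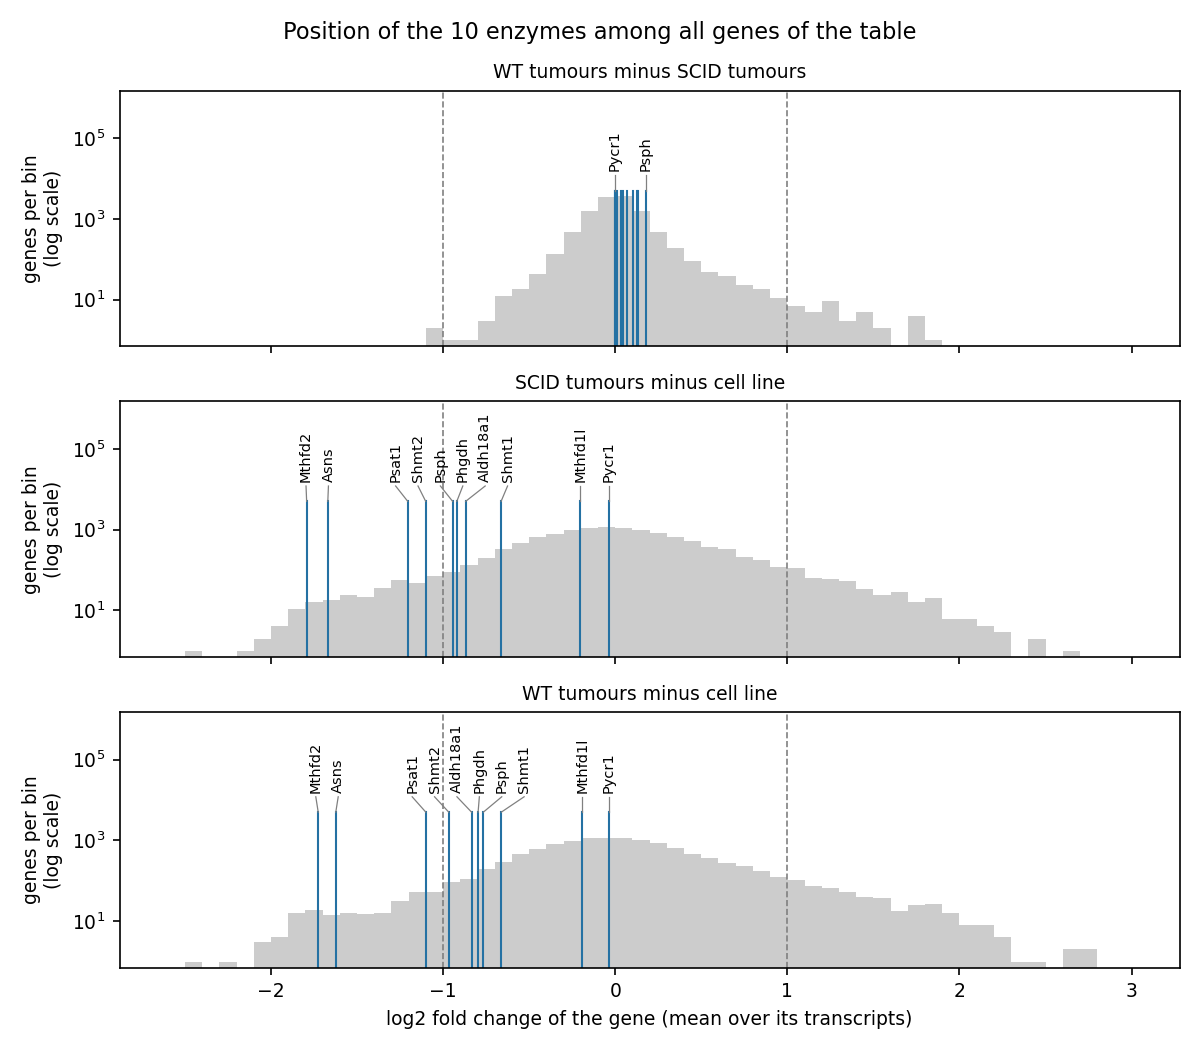
Log2 fold changes of all 11886 genes in bins of 0.1 (grey bars, log scale) with the 10 enzymes as vertical lines, for WT minus SCID, SCID minus the cultured line and WT minus the cultured line; dashed lines mark 2-fold. In the tumour comparisons with the line, 8 enzymes lie in the lower tail and Mthfd1l and Pycr1 closer to 0, while in WT minus SCID all 10 lie between -0.003 and 0.18.

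Other genes of folate-bound one-carbon metabolism were spread on both sides of 0. Of 14 listed, 13 were measured, with 0 lower and 1 higher by 2-fold in WT tumours and 1 lower and 1 higher in SCID tumours. Of all genes, 2.03% were lower and 4.12% higher by 2-fold in WT tumours, and 2.62% and 3.65% in SCID tumours. The same shares apply to the lists that follow. Their median was -0.12 in WT tumours and -0.04 in SCID tumours. Mthfd1, the cytosolic enzyme with the activities of the mitochondrial pair, was at -0.94 in WT tumours and -1.03 in SCID tumours. Tyms, thymidylate synthase, was at -0.82 in WT tumours and -0.86 in SCID tumours. Aldh1l1, which disposes of one-carbon units in the cytosol, was on the other side at 1.78 in WT tumours and 1.87 in SCID tumours. Mthfd2l, the close relative of Mthfd2, was at -0.12 in WT tumours and 0.09 in SCID tumours and so lay far from it. Slc19a1, the reduced folate carrier, was at -0.61 in WT tumours and -0.94 in SCID tumours. Slc25a32, the mitochondrial folate carrier, was at -0.53 in WT tumours and -0.42 in SCID tumours.

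The lists of pathways that use or supply the products had medians closer to 0 than that of the enzymes, and glycolysis lay on both sides of 0. All 13 listed purine and pyrimidine enzymes were measured and below 0, with 0 past 2-fold in WT tumours and 1 in SCID tumours, and a median of -0.62 in WT tumours and -0.68 in SCID tumours. Umps, a pyrimidine enzyme that makes UMP, was lowest at -0.96 in WT tumours and -1.05 in SCID tumours. Cad followed at -0.88 and -0.98 in those pools. Paics and Gmps were highest, with Paics at -0.17 in WT tumours and -0.09 in SCID tumours. Of 5 aspartate and alanine transamination genes, Gpt2, the mitochondrial alanine aminotransferase, was lowest at -0.85 in WT tumours and -1.03 in SCID tumours, and Asrgl1, an asparaginase, highest at 0.32 in WT tumours and 0.19 in SCID tumours. None of the 8 measured proline and glutamate genes passed 2-fold in either pool, and their median was -0.24 in WT tumours and -0.26 in SCID tumours. Methionine cycle and transsulfuration genes, 7 of 7 measured, had a median of -0.24 in WT tumours and -0.33 in SCID tumours, with Cth, which makes cysteine, at -0.78 and -0.61 and Cbs at 0.63 and 0.71 in those pools. Of the glycine cleavage system 3 of 4 genes were measured, from Gcsh at -0.50 in WT tumours and -0.44 in SCID tumours to Gldc at -0.07 and 0.02. Glycolysis, which supplies the precursor of serine, had 11 of 11 genes within 2-fold in both pools, with a median of -0.09 in WT tumours and 0.05 in SCID tumours and with 4 genes above 0 in WT tumours and 6 in SCID tumours.

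Genes of amino acid transport and charging lay mostly below 0. Of 12 amino acid transporters 10 were measured, with a median of -0.40 in WT tumours and -0.69 in SCID tumours. Slc6a9, a glycine transporter, was at -0.97 in WT tumours and -1.10 in SCID tumours, past 2-fold in SCID tumours and just inside it in WT tumours. Slc7a5, the leucine carrier, was at -0.81 in WT tumours and -0.89 in SCID tumours. Slc7a11, the cystine carrier, was at 0.09 in WT tumours and -0.64 in SCID tumours, and its WT minus SCID value of 0.73 was the highest of the list. All 20 cytosolic aminoacyl-tRNA synthetases were measured and within 2-fold, with a median of -0.50 in WT tumours and -0.55 in SCID tumours. Mars was lowest in WT tumours at -0.81, Vars was lowest in SCID tumours at -0.83, and Qars was at -0.01 in WT tumours and 0.02 in SCID tumours.

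The regulators and other targets of ATF4 lay on both sides of 0. All 16 listed genes were measured, with 0 lower and 3 higher by 2-fold in WT tumours, and 0 lower and 4 higher in SCID tumours. Of all genes, 4.12% were higher by 2-fold in WT tumours and 3.65% in SCID tumours. Their median was 0.23 in WT tumours and 0.27 in SCID tumours, with 6 genes below 0 and 10 above in each pool. The list mixes regulators with targets, so its median is not a measure of ATF4 activity. The part of ATF4 in the values of the enzymes was not tested. Atf3, a transcription factor that stress induces, had 1.95 in WT tumours and 2.22 in SCID tumours, and Ddit4, an inhibitor of mTORC1 signalling, was 2.83-fold and 3.02-fold higher in those pools. Ppp1r15a, which restores translation after stress, was at 1.33 in WT tumours and 1.33 in SCID tumours. Chac1, a glutathione-degrading enzyme, was at -0.79 in WT tumours and -0.88 in SCID tumours, and Trib3, a pseudokinase that restrains ATF4, at -0.38 and -0.56. Atf4 RNA itself was at -0.33 in WT tumours and -0.27 in SCID tumours; ATF4 is known to be controlled largely in translation, which these libraries do not measure.

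**Figure D4:**
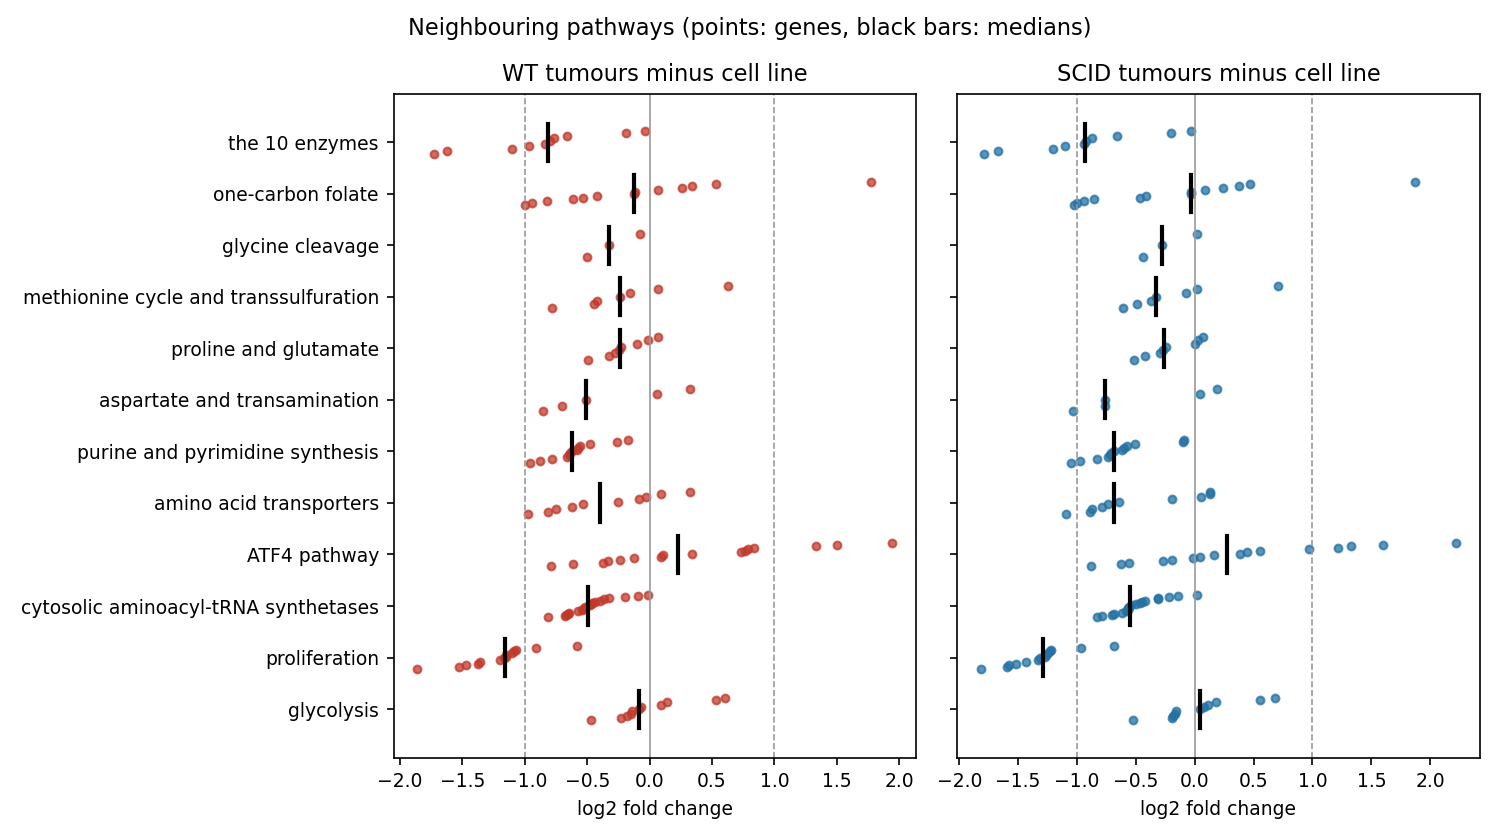
Log2 fold changes in WT tumours (left) and SCID tumours (right) against the cultured line for the 10 enzymes and 11 lists of neighbouring genes; each point is 1 gene, black bars are medians and dashed lines mark 2-fold. The median of the enzymes is -0.82 in WT tumours and -0.93 in SCID tumours, that of proliferation genes is -1.16 and -1.29, and that of the ATF4 list is above 0.

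Proliferation genes were lower alongside the enzymes. All 14 listed genes were below 0 in both pools, with a median of -1.16 in WT tumours and -1.29 in SCID tumours. In each pool 12 were lower by 2-fold, where 2.03% of all genes were in WT tumours and 2.62% in SCID tumours. Rrm2, the ribonucleotide reductase subunit, was at -1.86 in WT tumours and -1.82 in SCID tumours. The part of proliferation in the values of the enzymes was not tested. The genes closest to an enzyme over the values of WT and SCID tumours against the line, by Euclidean distance across the 3 libraries, are given by name only, with no test of what they share. Nearest to Mthfd2 were the histone genes Hist1h2ap at a distance of 0.0302, Hist1h1e and Hist1h3b. Nearest to Asns were Hist1h2ak and Hist1h2ah, also histone genes, and Tdrp. Nearest to Psat1 were Mcm3, a helicase subunit of DNA replication, Top2a, a topoisomerase of dividing cells, and Fanca, a DNA crosslink repair gene. Nearest to Shmt2 were Slc6a9, Fads2, a fatty acid desaturase, and Cdc25c, a phosphatase of entry into mitosis. A distance over 2 values is a weak measure of likeness, and many genes share such a pair of values.

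Markers of cell types were compared in the same way, since host cells could pass the sort. All 8 epithelial markers had a row, with 5 below 0 in each pool and a median of -0.20 in WT tumours and -0.31 in SCID tumours. In WT tumours 0 of them were lower and 3 higher by 2-fold, where 2.03% and 4.12% of all genes were. In SCID tumours 2 were lower and 3 higher, where 2.62% and 3.65% of all genes were. Epcam, Cldn4 and Sox9 were the higher ones, with Epcam at 1.59 in WT tumours and 1.25 in SCID tumours. Krt7 was at -0.99 in WT tumours and -1.18 in SCID tumours, and Krt19 at -0.95 and -1.01 in those pools. Of 12 macrophage markers 4 were measured, with a median of 1.73 in WT tumours and 0.70 in SCID tumours against the line, and 1.04 in WT minus SCID. The only measured one of 10 fibroblast markers, Col1a1, was at 1.90 in WT tumours and 2.61 in SCID tumours, and Kdr and Flt1, of 6 endothelial markers, had a median of 1.37 and 1.21. Foxp3 and Tcf7, the measured pair of 6 T cell markers, had a median of 0.22 in WT tumours and 0.23 in SCID tumours, and no B cell marker nor Ptprc had a row. Levels are not in the table, so the share of host RNA in either pool is unknown, and its part in the lower values of the enzymes was not tested. The tumour cells were also dissociated and sorted, a step the labels do not describe for the cultured line, so growth in a mouse and handling cannot be told apart.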

How the data were processed

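RNA-seq of 3 libraries was used, 1 for each group: sorted tumour cells from WT mice, sorted tumour cells from SCID mice, and the cultured line. Per the labels' protocols, libraries were stranded and poly(A)-selected, and read as pairs of 75 bases. The authors deposited log2 fold changes per RefSeq transcript; the header names no log base, and log2 was assumed from the range of the values and the tools in the submitters' processing notes, which list DESeq2 1.20.0, BWA, Partek, R 3.5.1 and mm9 with no role or order. Per the labels, mean depth was 40M reads; counts and levels per sample were not used here, so the reads behind each value are unknown. In all 17910 rows the third column equalled SCID minus WT within 1e-12; it was multiplied by -1 for WT minus SCID. Coordinates follow the authors' deposited table as 1-based positions, with 1 taken off each stop. The notes name mm9, but 92.5% of 16697 transcripts matched to GENCODE vM21 (GRCm38) start within 1000 bases of it, and all 16 member transcripts do at both ends, so the coordinates were read as GRCm38.

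Transcripts were averaged within genes (11886 genes; 8288 with 1 transcript). A gene was counted at 2-fold (log2 of 1). The members and lists were chosen with earlier results of these data known. Genes named are all members, the 2 highest and 2 lowest of each list where described, the 3 nearest genes of each member past 2-fold and cell type markers, with others chosen after their values were seen. Some genes this rule names are not reported here. Promoter letters come from RefSeq GRCm38.p6; motifs were chosen after the values and sequences were seen. The trend removal was tested on simulated data. Python 3.11.15, pandas 2.3.3, numpy 2.4.6 and matplotlib 3.10.9 were used.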

Additional observations from a re-analysis of the deposited data

Results flagged for a closer look

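Slc7a11, the cystine carrier, was at 0.09 in WT tumours and -0.64 in SCID tumours against the cultured line, a WT minus SCID value of 0.73. Mrc1, a macrophage marker, was at 0.77 in WT tumours and -0.06 in SCID tumours against the line, a WT minus SCID value of 0.82. In each case 1 pool lay close to the line, WT tumours for Slc7a11 and SCID tumours for Mrc1, and the other lay farther from it. Each gene has 1 transcript in the table, and with 1 library per group the difference was not tested. The other measured macrophage markers, Apoe, Cd68 and Cd14, were above the line in SCID tumours, at 1.02, 0.99 and 0.41. Their WT minus SCID values were 1.75, 1.26 and 0.80, so Mrc1 does not stand for the list in SCID tumours.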

How the results depend on the processing

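The counts of enzymes past 2-fold against the line moved by over 1.5 times with the threshold and with no other setting run. At 1.5-fold they were 8 in WT tumours and 8 in SCID tumours, and at 4-fold 0 in WT tumours and 0 in SCID tumours, since no value reached -2. With the median transcript, the transcript farthest from 0, coding transcripts only, centring on the median gene, removal of the GC and length trend (93.2% of transcripts had a value), without the farthest enzyme or with each transcript counted, a choice made after seeing the data, the counts ran from 2 to 4 in WT tumours and from 3 to 5 in SCID tumours. Under these settings the median of the enzymes ran from -0.86 to -0.77 in WT tumours and from -0.96 to -0.84 in SCID tumours against the line, and from 0.05 to 0.10 in WT minus SCID. With the transcript farthest from 0, Psat1 was at -1.72 in WT tumours and -1.72 in SCID tumours, and Pycr1 at -0.37 in WT tumours. Count-based alternatives (normalization, low-count filters) were not run because the table holds no counts. No paired analysis was possible because each group has 1 library. The lack of replicates and of counts limits every value to a description of these libraries.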
